A study of Mus musculus with 19 samples.

Results

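Basal epithelial cells of the mouse anterior prostate were compared between toxin-treated Lgr5-DTR-eGFP animals and wild type controls. The comparison used the 6 libraries whose descriptions name basal cells, 3 of each genotype, out of 19 in the series. The other 13 came from luminal and stromal cells of the same 2 kinds of animal. All populations were isolated by flow sorting of dissociated prostate cells stained with fluorescent antibodies, and their total RNA was turned into cDNA with the SMART-Seq v4 low-input kit. The Lgr5-DTR-eGFP line places a diphtheria toxin receptor and a green fluorescent reporter under control of the Lgr5 gene, and these animals had received diphtheria toxin (DT). The aim given for the series was to learn what follows in each population when the Lgr5-expressing stromal cells are ablated. The protocols name C57BL/6 mice bought from a commercial breeder, while the Lgr5-DTR-eGFP line was provided by another laboratory. Whether the wild type libraries came from those C57BL/6 mice, whether the wild type mice were given toxin, the ages of the animals and the number of animals behind each library were not given in the sources used here. Genotype, toxin and animal source therefore cannot be told apart, and p-values measure the spread between these libraries only, which may be technical.

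Prostate basal cells rest on the basement membrane beneath the secretory luminal cells. They express keratins 5 and 14 and the transcription factor p63, and they hold on to the membrane through integrins and hemidesmosomes. They can also act as progenitors, and in damaged or inflamed prostates they can take on luminal or squamous transcripts. The stroma beside them is a source of growth factors and matrix.

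The basal libraries held 7.13 to 9.38 gigabases aligned to annotated transcripts, and 9209 to 9990 genes reached 1 FPKM (fragments mapped per kilobase of transcript, scaled to the size of the library). The sort was checked against 20 basal cell markers, whose summed level was 8892 to 14441 FPKM in the 6 basal libraries against 191 to 618 in wild type luminal and 32.9997 to 75.2 in wild type stromal libraries. The secretory genes of luminal cells summed to 269 to 1003 FPKM in Lgr5-DTR and 518 to 827 in wild type basal libraries, against 24031 to 34057 in wild type luminal cells. General luminal markers set basal and luminal libraries apart less clearly, and their sums are given below. Lymphocyte, neutrophil and seminal vesicle markers each summed to under 3 FPKM in every basal library. Lgr5-DTR replicate 1 and wild type replicate 1 lay nearest to the other group more often than their partners did. Lgr5-DTR replicate 1 was the Lgr5-DTR library closest to the wild type mean in 47.2% of all tested genes, and wild type replicate 1 was the wild type library closest to the Lgr5-DTR mean in 49.7%. Lgr5-DTR replicates 1 and 3 and wild type replicate 2 carried 424 low-data status entries each that the other 3 libraries lacked, and with this processing set as a covariate 771 genes were called in place of the 1069 described below, 740 of them in common.

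Lgr5 itself, which encodes a receptor for R-spondins in the Wnt pathway, was barely detected in basal cells. It measured 1.47, 0.551 and 0.568 FPKM in Lgr5-DTR replicates 1, 2 and 3 and 0.659, 0.824 and 0.857 FPKM in wild type replicates 1, 2 and 3. The highest value belonged to Lgr5-DTR replicate 1, the other 2 Lgr5-DTR libraries lay below all wild type libraries, and the groups overlapped. The difference of the means was 0.0817 FPKM (two-sided exact permutation test, p = 1), where the 20 splits of 3 against 3 libraries allow no p below 0.1. The gene lies on chromosome 10, 115450314 to 115587780 in mm10 and was too low to enter the fit. Its level in basal cells therefore gives no check of the labels.

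Of 24343 genes in the tables, 9755 reached 1 FPKM in at least 3 of the 6 libraries and were tested with limma on log2(FPKM + 1). At a Benjamini-Hochberg adjusted p under 0.05, 634 genes were higher in Lgr5-DTR basal cells (6.50% of those tested) and 435 were lower (4.46%). In each of these 1069 genes the 3 Lgr5-DTR libraries lay on one side of the 3 wild type libraries, as they did in 1704 genes with a positive and 1332 with a negative difference among all tested. The median difference of all tested genes was 0.02 on the log2 scale. A gene could pass the filter through 1 group alone, so counts below cover tested members and not all members of a list. Not every such gene is marked below. The shares of 6.50% and 4.46% are the background for the members called in each list. For counts at an unadjusted p under 0.05 the background is 2703 of the 9755 tested genes. The lists were chosen with earlier results of these data known, so counts set beside these shares describe the members and do not test a list. In bulk libraries such as these, fewer cells of a type and less RNA per cell cannot be told apart. At least a doubling on that scale (a log2 difference of 1 or more) was found in 344 of the higher and 231 of the lower genes, and 73 and 25 passed a log2 difference of 2. A log2 difference had a median SE of 0.196. The split moved with the scaling, to 655 higher and 633 lower with quantile scaling and 623 and 557 with median-ratio scaling. In 1 fit of all 19 basal, luminal and stromal libraries 519 were higher and 470 lower. The count rested on single libraries. It was 2264 without Lgr5-DTR replicate 1, of which 1049 were among the 1069, and 350, 561, 1093, 337 and 356 without Lgr5-DTR replicates 2 and 3 and wild type replicates 1, 2 and 3. Lgr5-DTR replicate 1 was the Lgr5-DTR library nearest to wild type in 56.0% of the higher and 74.7% of the lower genes. Without it the balance of directions also turned, to 992 higher and 1272 lower. Below, values are given in the order of replicates 1, 2 and 3 of each group, and differences are Lgr5-DTR minus wild type on the log2(FPKM + 1) scale, which understates changes of low genes.

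**Figure D1:**
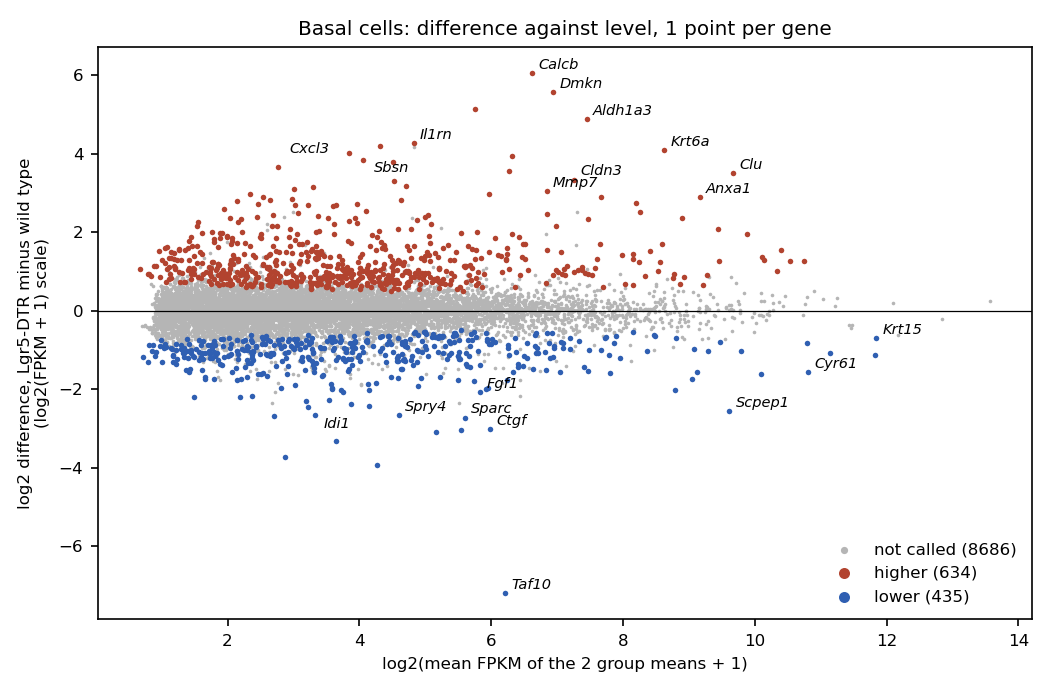
Each point is 1 of the 9755 tested genes in basal cells, with the log2 of its mean FPKM plus 1 on the horizontal axis and its log2 difference, Lgr5-DTR minus wild type, on the vertical axis. Red points mark the 634 higher and blue points the 435 lower genes, and Calcb and Dmkn stand highest while Taf10, with 0 listed for every Lgr5-DTR library, stands lowest.

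Dmkn (dermokine), Sbsn (suprabasin) and Krtdap (keratinocyte differentiation-associated protein) rose. They encode secreted proteins known from stratified epithelium and are neighbours in mm10. Sbsn lies on chromosome 7, 30751471 to 30756134, Dmkn on chromosome 7, 30763756 to 30781066 and Krtdap on chromosome 7, 30787905 to 30791083. Their promoters are shown because the 3 genes lie side by side and moved together. Each line gives 180 bases up to the base before the annotated start, 5′ to 3′ on the coding strand, from RefSeq on GRCm38.p6. Capitals mark TGANTCA, where N is any base, a looser pattern than the TGAGTCA or TGACTCA that AP-1 factors recognise. The Sbsn match shown is TGAATCA. Its TGAGTCA begins 6 bases before the start, is cut by the end of the stretch and is not marked.
Sbsn: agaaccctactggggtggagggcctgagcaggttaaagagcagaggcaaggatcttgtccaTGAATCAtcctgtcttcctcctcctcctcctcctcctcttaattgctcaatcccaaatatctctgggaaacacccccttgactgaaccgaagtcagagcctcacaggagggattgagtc
Dmkn: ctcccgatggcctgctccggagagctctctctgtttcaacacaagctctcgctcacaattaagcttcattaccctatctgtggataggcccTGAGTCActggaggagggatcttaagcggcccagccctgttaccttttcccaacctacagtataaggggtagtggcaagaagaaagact
Krtdap: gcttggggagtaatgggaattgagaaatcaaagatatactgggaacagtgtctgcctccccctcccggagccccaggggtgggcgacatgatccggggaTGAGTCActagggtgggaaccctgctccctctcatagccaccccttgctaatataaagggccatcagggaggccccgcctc
These stretches are chr7:30751291-30751470, chr7:30763576-30763755 and chr7:30787725-30787904, all on the plus strand, and the Dmkn stretch belongs to 1 of its 3 promoters in the table. Within 250 bases before to 50 after the start, TGANTCA on either strand was found in 3 of the 4 called-higher genes of the list that have a promoter in the table, and in 2565 of all 32851 promoters (7.81%). It was also found in all 3 of the called-lower genes with a promoter there, Sprr2e, Sprr2f and Sprr2h. A gene counted if any of its promoters matched, while the 7.81% is a share of single promoters, so the units differ. Uncalled members of the list were not counted.

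Dmkn measured 117, 342 and 258 FPKM in the Lgr5-DTR and 9.81, 2.47 and 1.63 FPKM in the wild type libraries (log2 difference 5.57, SE 0.55, limma adjusted p = 0.00158). Sbsn measured 21.1, 40.6 and 27.96 FPKM against 3.28, 0.457 and 0.435 (log2 difference 3.85, SE 0.43, limma adjusted p = 0.00215). In both genes the lowest Lgr5-DTR and the highest wild type library was replicate 1, and the groups stood far apart. Krtdap was at 3.53, 7.87 and 8.91 FPKM and at 0.186, 0 and 0 in wild type, where replicates 2 and 3 were listed at 0, so that it passed the filter through the Lgr5-DTR group alone (log2 difference 2.797, SE 0.297, limma adjusted p = 0.00158). Grhl3, a transcription factor of epidermal barrier formation, rose from 1.301, 0.8398 and 0.607 to 10.7, 16.5 and 11.3 FPKM (log2 difference 2.85, SE 0.22, limma adjusted p = 0.000575). Evpl, which encodes the envelope scaffold envoplakin, rose less, from 2.78, 2.29 and 3.51 to 6.69, 7.93 and 10.8 FPKM (log2 difference 1.28, SE 0.21, limma adjusted p = 0.00796). In luminal cells Sbsn was also called higher (2.24 on the log2 scale, limma adjusted p = 0.0149), and the difference between the basal and luminal changes of Dmkn was not called (2.96, limma adjusted p = 0.138).

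Sprr2e, Sprr2f, Sprr2g and Sprr2h, small proline-rich proteins of the cornified envelope, fell. Sprr2f fell from 14.9, 9.52 and 6.53 FPKM in wild type to 0.321, 1.16 and 0.661 FPKM (log2 difference -2.69, SE 0.298, limma adjusted p = 0.00179). Sprr2g fell from 42.02, 29.3 and 16.1 to 2.65, 4.51 and 6.13 FPKM (log2 difference -2.43, SE 0.36, limma adjusted p = 0.00572), and Sprr2h from 175, 159 and 103 to 38.1, 49.6 and 68.5 FPKM (log2 difference -1.47, limma adjusted p = 0.0106). In all 3 genes wild type replicate 1 was highest and every Lgr5-DTR library lay below every wild type library. Sprr2e was lower as well (log2 difference -2.17, limma adjusted p = 0.0187). The Sprr2 genes are near-identical copies whose reads can be divided wrongly, so the individual values are uncertain. The more abundant Sprr1a, at 3008, 4250.0 and 3636 against 7189, 5004 and 4626 FPKM, and Ivl (involucrin), at 167, 207 and 222 against 256, 197 and 178 FPKM, did not pass (-0.61, limma adjusted p = 0.112, and -0.07, limma adjusted p = 0.837). Of 22 tested members of the cornified envelope list, of 37 in the tables, 5 were called higher and 4 lower, with a median of 0.00 against 0.02 for all genes. Leaving out Lgr5-DTR replicates 1, 2 and 3 and wild type replicates 1, 2 and 3 in turn gave 6, 5, 6, 7, 5 and 5 higher and 5, 3, 3, 4, 2 and 4 lower. Sprr2h was not called with Lgr5-DTR replicate 2 or wild type replicate 2 left out (limma adjusted p = 0.0521 to 0.0594). Sprr2e was not called with Lgr5-DTR replicate 3 or wild type replicate 2 left out (limma adjusted p = 0.0679 to 0.075). Sprr2h was not called in the fit of all 19 libraries (limma adjusted p = 0.0654).

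Several keratins of activated and simple epithelium rose, while Krt5 and Krt14 were not called. Krt6a, a keratin induced in wounded epithelium, measured 541, 891 and 788 FPKM against 94.1, 28.4 and 26.3 FPKM (log2 difference 4.09, SE 0.45, limma adjusted p = 0.00206), and its close copy Krt6b measured 12.6, 20.3 and 17.1 against 1.702, 0.739 and 0.587 FPKM (log2 difference 3.15, SE 0.25, limma adjusted p = 0.000611). Reads of these 2 near-identical genes can be exchanged. Krt16, the usual partner of keratin 6, rose by 1.12 on the log2 scale (limma adjusted p = 0.0263). Krt80 rose from 5.93, 4.08 and 3.75 to 14.6, 14.2 and 15.9 FPKM (log2 difference 1.53, SE 0.18, limma adjusted p = 0.00223), with nearly equal values in the 3 Lgr5-DTR libraries. The simple-epithelial keratin Krt19 rose from 775, 679 and 499 to 1399, 2033 and 1404 FPKM (log2 difference 1.31, SE 0.22, limma adjusted p = 0.0088), Krt7 by 1.25 (limma adjusted p = 0.0191), and Krt20 and Krt32 by 1.504 and 1.25 (limma adjusted p = 0.00963 and 0.00993). Krt8 and Krt18, the main luminal keratins, were already abundant in basal cells and did not pass (0.13 and 0.12, limma adjusted p = 0.682 and 0.718). Krt23 stood at 41.5, 275 and 249 against 54.3, 27.9 and 29.9 FPKM, with replicate 1 of the Lgr5-DTR group inside the wild type range (log2 difference 1.96, limma adjusted p = 0.0954). Of 23 tested keratins, of 51 in the tables, 9 were called higher and 1 lower, with a median of 0.67. With the 6 libraries left out in that order, 11, 6, 8, 10, 4 and 6 were higher. Krt20 and Krt32 were not called with wild type replicate 2 left out (limma adjusted p = 0.0533 to 0.0549). Krt7 was not called with Lgr5-DTR replicates 2 or 3 or wild type replicates 2 or 3 left out (limma adjusted p = 0.0627 to 0.0926). Krt16 was not called with Lgr5-DTR replicate 2 or wild type replicates 2 or 3 left out (limma adjusted p = 0.101 to 0.111). Krt16, Krt19 and Krt7 were not called in the fit of all 19 libraries (limma adjusted p = 0.146 to 0.416). Krt80 overlaps a further gene model, which makes its FPKM less certain.

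Among the 20 markers that define basal cells the direction was mixed. Trp63, the p63 gene, measured 16.9, 11.8 and 17.5 FPKM in Lgr5-DTR and 42.1, 37.1 and 34.3 FPKM in wild type libraries (log2 difference -1.26, SE 0.18, limma adjusted p = 0.00447). Its groups were separated and it was called without any 1 library. Krt15 fell from 4632, 4577 and 4370.2 to 3111, 2739 and 2555 FPKM (log2 difference -0.696, limma adjusted p = 0.0252), and Dst, which anchors keratin filaments to hemidesmosomes, fell from 81.1, 117 and 117 to 58.5, 40.2 and 44.6 FPKM (log2 difference -1.12, limma adjusted p = 0.0111). Col17a1, a hemidesmosome collagen, rose from 152, 107 and 86.5 to 181, 209 and 285 FPKM (log2 difference 0.98, limma adjusted p = 0.0359), and Aqp3, a channel for water and glycerol, from 396, 195 and 194 to 588, 1488 and 1291 FPKM (log2 difference 2.08, limma adjusted p = 0.0151). Krt5 measured 430.1, 417 and 461 against 381, 307 and 352 FPKM and was not called (log2 difference 0.33, 95% interval of plus or minus 0.34, limma adjusted p = 0.191). Krt14 measured 2375, 2279 and 2513 against 3546, 3310.0 and 2882 FPKM and was not called either (log2 difference -0.44, 95% interval of plus or minus 0.36, limma adjusted p = 0.116). In both keratins the groups did not overlap, but the difference was small. Snai2, a transcriptional repressor of mesenchymal and basal cells, was at 41.8, 13.3 and 16.1 against 36.3, 56.8 and 58.9 FPKM, where Lgr5-DTR replicate 1 lay above the lowest wild type library (log2 difference -1.21, limma adjusted p = 0.0894). Of 16 tested basal markers 2 were higher and 3 lower, with a median of -0.04. With each library left out in the same order, 3, 0, 0, 2, 0 and 0 were higher and 5, 1, 2, 2, 1 and 1 lower. Col17a1 and Aqp3 were not called with Lgr5-DTR replicates 2 or 3 or wild type replicates 2 or 3 left out (limma adjusted p = 0.0623 to 0.146). Krt15 was not called with Lgr5-DTR replicates 2 or 3 or wild type replicates 1, 2 or 3 left out (limma adjusted p = 0.0551 to 0.121). Dst was not called with Lgr5-DTR replicate 2 or wild type replicates 2 or 3 left out (limma adjusted p = 0.0592 to 0.0624). Krt15 was not called with quantile scaling (limma adjusted p = 0.255). Krt15 and Col17a1 were not called with the processing set as a covariate (limma adjusted p = 0.0578 to 0.0803). Krt15, Col17a1 and Aqp3 were not called in the fit of all 19 libraries (limma adjusted p = 0.0846 to 0.471). Dst overlaps a further gene model, which makes its FPKM less certain.

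**Figure D2:**
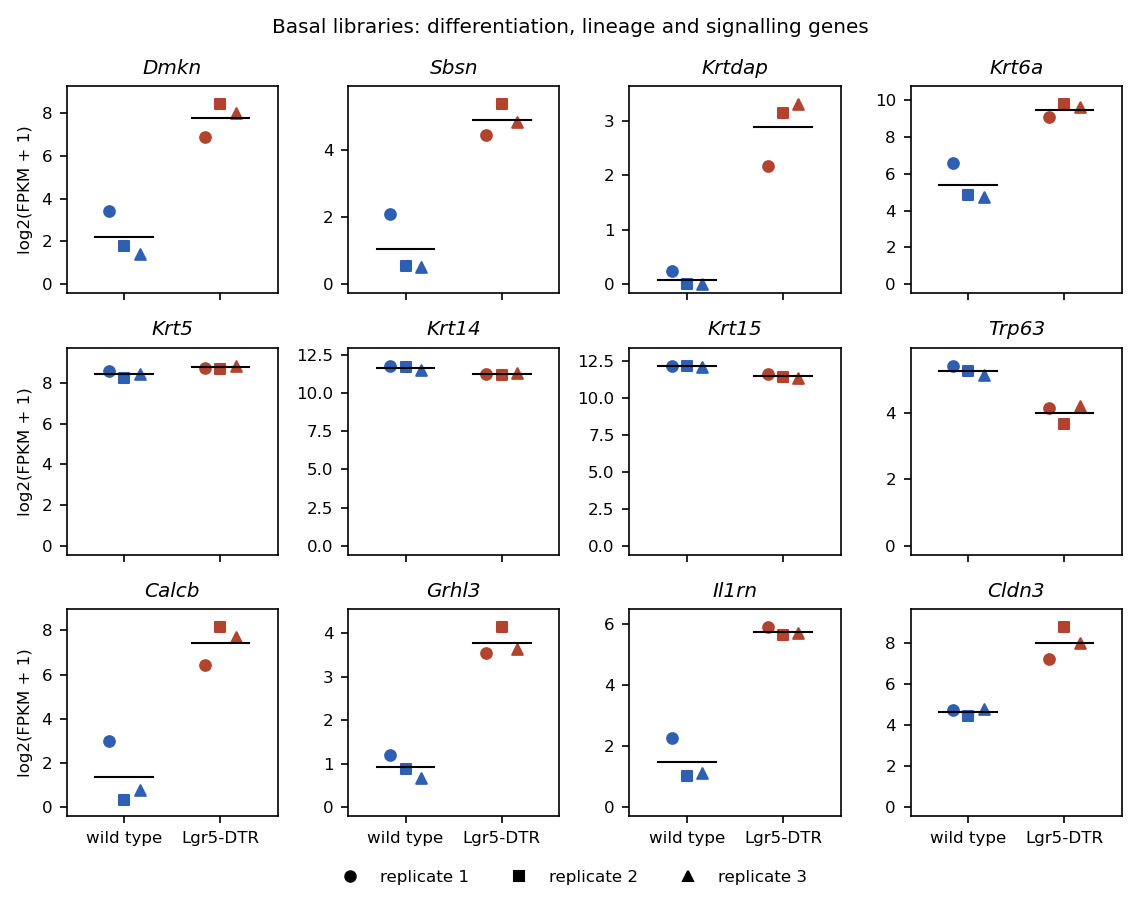
Each panel plots log2(FPKM + 1) of 1 gene in the 3 wild type (blue) and 3 Lgr5-DTR (red) basal libraries, with a shape for each replicate number and a bar at the group mean. Dmkn, Sbsn, Krtdap, Krt6a, Calcb, Grhl3, Il1rn and Cldn3 were higher in all 3 Lgr5-DTR libraries, Trp63 and Krt15 lower, and Krt5 and Krt14 shifted little, and replicate 1 was the highest wild type library for Dmkn, Sbsn, Krt6a, Calcb, Grhl3 and Il1rn.

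Transcripts of luminal progenitors near the urethra rose in the basal libraries. Clu, which encodes the secreted chaperone clusterin, measured 905, 1800.3 and 1795 FPKM against 207, 105 and 89.1 FPKM (log2 difference 3.51, SE 0.37, limma adjusted p = 0.00167). Ly6d, a surface marker of luminal progenitors, measured 379, 364 and 326 against 67.4, 42.5 and 36.4 FPKM (log2 difference 2.89, SE 0.22, limma adjusted p = 0.000575), and its Lgr5-DTR values lay close together. Aldh1a3, an enzyme that makes retinoic acid, measured 195, 410.3 and 396 against 30.3, 6.37 and 4.35 FPKM (log2 difference 4.89, SE 0.61, limma adjusted p = 0.00304). Wild type replicate 1 was the highest wild type library in all 3 genes. Krt7, Ly6a and Wfdc2 rose as well, by 1.25, 1.37 and 1.48 (limma adjusted p = 0.0191, 0.0145 and 0.0159). Psca, at 11.8, 19.1 and 7.64 against 19.6, 3.44 and 2.28 FPKM, Krt4, Gsto1 and Cyp2f2 did not pass. Thus 7 of 11 tested members were called higher and none lower, with a median of 1.37 against 0.02 for all genes. Leaving out the libraries in the order given above, 7, 4, 6, 8, 3 and 4 were higher. Ly6a belongs to a family of similar genes and its value is uncertain for that reason. In luminal cells 2 of these 7 genes were called, Ly6d higher by 3.04 (limma adjusted p = 0.00724) and Clu by 3.54 (limma adjusted p = 0.0459). The test of the difference between basal and luminal changes was passed by none of the 11 in limma. Their median change was 1.366 in basal and 1.475 in luminal cells. The summed level of the 13 markers was 5122 to 8656 FPKM in Lgr5-DTR and 2110.3 to 3142 FPKM in wild type basal cells, in both above that of the luminal cells of the same genotype (1355 to 4415 and 265 to 777 FPKM). Ly6a and Wfdc2 were not called with Lgr5-DTR replicate 2 or wild type replicates 2 or 3 left out (limma adjusted p = 0.0543 to 0.0802). Krt7 was not called with Lgr5-DTR replicates 2 or 3 or wild type replicates 2 or 3 left out (limma adjusted p = 0.0627 to 0.0926). Krt7, Ly6a and Wfdc2 were not called in the fit of all 19 libraries (limma adjusted p = 0.0885 to 0.27).

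General luminal markers rose in part. Cldn3, a claudin of tight junctions, measured 146, 436 and 258 FPKM against 25.8, 20.8 and 26.2 FPKM (log2 difference 3.34, SE 0.34, limma adjusted p = 0.00162). Tmprss2, a membrane serine protease that responds to androgen, measured 41.3, 31.4 and 27.2 against 15.5, 13.7 and 11.5 FPKM (log2 difference 1.23, SE 0.19, limma adjusted p = 0.00628). Elf3, an epithelial ETS factor, measured 96.3, 161 and 136 against 56.2, 49.97 and 45.3 FPKM (log2 difference 1.33, SE 0.203, limma adjusted p = 0.0057). In these 3 genes even the lowest Lgr5-DTR library was well above the highest wild type library. Epcam rose by 1.26 (limma adjusted p = 0.0195). Hoxb13 and Foxa1, transcription factors of prostate luminal identity, did not pass. Hoxb13 was at 19.7, 7.42 and 4.096 against 14.98, 25.6 and 31.5 FPKM, with Lgr5-DTR replicate 1 inside the wild type range. Of 14 tested luminal markers 5 were higher and none lower, with a median of 0.16, and 5, 4, 4, 5, 4 and 4 were higher with each library left out. Tmprss2 differed between the populations, since its luminal change was -0.79 (limma adjusted p = 0.081) and the difference 2.02 (SE 0.305, limma adjusted p = 0.00569). Of the secretory genes 1 of 6 tested was called, Ren1, which fell from 24.4, 105 and 57.1 to 14.2, 6.39 and 1.22 FPKM (log2 difference -3.099, limma adjusted p = 0.0292). The annotation places Ren2 over Ren1, so its value is uncertain. The 17 luminal markers summed to 7399 to 9600.2 FPKM in Lgr5-DTR and 5703 to 6609 FPKM in wild type basal libraries. In luminal libraries they summed to 7480 to 13213 FPKM in wild type and 8853 to 17359 FPKM in Lgr5-DTR. The Lgr5-DTR basal sums thus overlapped the luminal range. The part of luminal cells in these results was not tested. Ren1 was not called with Lgr5-DTR replicates 1, 2 or 3 or wild type replicates 2 or 3 left out (limma adjusted p = 0.0623 to 0.142). Epcam was not called with Lgr5-DTR replicates 2 or 3 or wild type replicates 2 or 3 left out (limma adjusted p = 0.0594 to 0.0917). Ren1 was not called at a pseudocount of 0.1 (limma adjusted p = 0.0952). Ren1 was not called with the processing set as a covariate (limma adjusted p = 0.0565). Epcam was not called in the fit of all 19 libraries (limma adjusted p = 0.14). Cldn3 and Ren1 overlap a further gene model, which makes their FPKM less certain.

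Among transcription factors of epithelial fate, Sox9, which marks prostate progenitors, rose from 99.7, 95.8 and 114 to 251, 211 and 181 FPKM (log2 difference 1.04, SE 0.17, limma adjusted p = 0.00704), and Ovol1, a regulator of epithelial differentiation, from 40.2, 39.1 and 46.01 to 117, 104 and 94.4 FPKM (log2 difference 1.31, SE 0.15, limma adjusted p = 0.00182). Klf5 and Foxq1 rose by 0.69 and 1.08 (limma adjusted p = 0.0477 and 0.0311). The Wnt repressor Tcf7l1 fell from 4.98, 7.66 and 6.71 to 2.45, 0.993 and 0.701 FPKM (log2 difference -1.698, SE 0.28, limma adjusted p = 0.0081). In Sox9, Ovol1 and Foxq1 Lgr5-DTR replicate 1 was the highest library. It was the Lgr5-DTR library nearest to wild type in 56.0% of all genes called higher. Of 13 tested luminal lineage factors 4 were higher and none lower, with a median of 0.01. Of 15 basal and squamous factors 2 were higher and 1, Trp63, was lower, with a median of -0.21. Without the libraries in turn, 5, 2, 3, 2, 2 and 2 luminal factors were higher and 5, 1, 1, 1, 1 and 1 basal and squamous factors were lower, and with quantile scaling 3 of the latter were lower. Id1 and Id3, targets of BMP signalling, were at -0.68 and -0.72 and did not pass (limma adjusted p = 0.0545 and 0.0839). Klf5 was not called with Lgr5-DTR replicates 2 or 3 or wild type replicates 1, 2 or 3 left out (limma adjusted p = 0.0549 to 0.156). Foxq1 was not called with Lgr5-DTR replicate 2 or wild type replicates 1, 2 or 3 left out (limma adjusted p = 0.0706 to 0.123). Klf5 was not called with plain empirical Bayes (limma adjusted p = 0.0593). Klf5 and Foxq1 were not called with the processing set as a covariate (limma adjusted p = 0.0764 to 0.101). Klf5 and Foxq1 were not called in the fit of all 19 libraries (limma adjusted p = 0.0797 to 0.199). Tcf7l1 overlaps a further gene model, which makes its FPKM less certain.

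Secreted peptides gave the largest single rise. Calcb, which encodes the beta form of calcitonin gene-related peptide, a vasodilator otherwise known from sensory neurons, measured 85.96, 283 and 207 FPKM in Lgr5-DTR and 7.04, 0.249 and 0.722 FPKM in wild type libraries (log2 difference 6.06, SE 0.69, limma adjusted p = 0.00223). Wild type replicate 1 held most of the wild type signal. Calca, the alpha form, measured 3.696, 9.06 and 7.48 against 0.581, 0.247 and 0.575 FPKM (log2 difference 2.34, SE 0.29, limma adjusted p = 0.0025). It passed the filter through the Lgr5-DTR group alone. Calca and Calcb are similar in sequence, so part of one may be counted as the other. Ramp3, a partner of calcitonin-family receptors, measured 8.18, 14.9 and 9.92 against 3.47, 2.44 and 1.05 FPKM (log2 difference 1.89, SE 0.31, limma adjusted p = 0.00845). Adm, which encodes the related peptide adrenomedullin, fell from 162, 141 and 149 to 85.98, 58.3 and 74.6 FPKM (log2 difference -1.05, SE 0.17, limma adjusted p = 0.00764). All of these groups were separated. Of 14 tested peptide hormones and receptors 3 were higher and 1 lower, and 3, 3, 3, 3, 3 and 3 were higher without each library in turn. Ramp3 overlaps a further gene model, which makes its FPKM less certain.

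Growth factor ligands changed in both directions. Fgf1, a fibroblast growth factor, fell from 93.2, 85.9 and 93.1 to 27.6, 18.5 and 17.98 FPKM (log2 difference -2.06, SE 0.18, limma adjusted p = 0.000772). Its wild type values lay close together, and its change lay -1.79 from that in luminal cells (SE 0.25, limma adjusted p = 0.00381). The insulin-like growth factor binding proteins Igfbp2 and Igfbp5 fell from 31.9, 18.2 and 20.2 to 5.62, 3.67 and 2.08 FPKM and from 17.6, 22.7 and 19.98 to 9.52, 2.51 and 2.35 FPKM (-2.38 and -2.07, limma adjusted p = 0.00312 and 0.0162). Btc, a ligand of the EGF receptor, rose from 0.924, 0.449 and 0.635 to 4.15, 7.11 and 4.598 FPKM (log2 difference 1.89, SE 0.23, limma adjusted p = 0.00223), and Ereg, another, by 1.37 (limma adjusted p = 0.0311). Btc passed the filter through the Lgr5-DTR group alone. Hbegf, a further ligand, fell from 591, 724 and 832 to 304, 443 and 354 FPKM (log2 difference -0.97, limma adjusted p = 0.0174). The receptor inhibitors Errfi1 and Lrig1 fell by 1.02 and 1.27 on the log2 scale (limma adjusted p = 0.00865 and 0.0129). Egfr itself was at 65.05, 62.04 and 67.1 against 87.7, 78.3 and 61.2 FPKM and did not pass (log2 difference -0.21, limma adjusted p = 0.451). So 2 of 13 tested members of the EGF receptor list rose and 3 fell, and with each library left out 4, 1, 2, 4, 1 and 1 were higher and 4, 1, 2, 3, 1 and 0 lower. Spry4, a feedback inhibitor of receptor tyrosine kinases that ERK induces, fell from 29.4, 43.1 and 48.4 to 10.6, 3.26 and 4.27 FPKM (log2 difference -2.66, SE 0.36, limma adjusted p = 0.00401). Of 21 ERK feedback and target genes 1 was higher and 2 were lower, with a median of -0.31, and 10, 1, 2, 3, 1 and 1 were lower without each library. Over all tested genes 6.50% were called higher and 4.46% lower. The early targets Dusp6 and Egr1 were at 484, 239 and 203 against 419.8, 553 and 684 FPKM and at 286, 133 and 91.5 against 240.5, 409 and 501 FPKM, and Lgr5-DTR replicate 1 lay inside the wild type range for both. Igfbp5 and Ereg were not called with Lgr5-DTR replicates 2 or 3 or wild type replicates 2 or 3 left out (limma adjusted p = 0.0506 to 0.135). Lrig1 was not called with Lgr5-DTR replicate 2 or wild type replicates 2 or 3 left out (limma adjusted p = 0.0619 to 0.0675). Errfi1 was not called with Lgr5-DTR replicate 2 or wild type replicate 3 left out (limma adjusted p = 0.0523 to 0.0534). Hbegf was not called with Lgr5-DTR replicate 3 or wild type replicates 2 or 3 left out (limma adjusted p = 0.0506 to 0.0892). Hbegf was not called in the fit of all 19 libraries (limma adjusted p = 0.104). Fgf1 and Lrig1 overlap a further gene model, which makes their FPKM less certain.

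In the TGF-beta pathway, Fst, which encodes the activin antagonist follistatin, rose from 60.5, 42.7 and 34.8 to 196, 235 and 185 FPKM (log2 difference 2.16, SE 0.21, limma adjusted p = 0.00118), and Smad3, a signal transducer of TGF-beta and activin receptors, from 17.2, 9.74 and 6.95 to 38.4, 63.1 and 61.7 FPKM (log2 difference 2.22, SE 0.32, limma adjusted p = 0.00495). Ltbp1, which stores latent TGF-beta in the matrix, rose from 1.43, 1.46 and 1.15 to 4.18, 10.2 and 9.51 FPKM (log2 difference 1.86, SE 0.29, limma adjusted p = 0.00652). No Lgr5-DTR library lay inside the wild type range for these genes. Of 24 tested members of the TGF-beta and BMP list 4 were higher and 2 lower, and omitting the libraries in the same order gave 6, 3, 3, 4, 3 and 3 higher and 9, 0, 0, 2, 0 and 0 lower. Quantile scaling gave 4 lower here and 7 lower Wnt genes. The Wnt ligand Wnt10a rose from 1.06, 1.49 and 0.902 to 3.57, 9.84 and 6.07 FPKM (log2 difference 1.72, limma adjusted p = 0.00962) and Wnt7b by 0.95 (limma adjusted p = 0.0101). Of 26 Wnt genes 2 were higher and 4 lower, with a median of -0.43, and without each library 11, 1, 1, 4, 1 and 1 were lower. The shares over all tested genes were 6.50% higher and 4.46% lower. None of 10 tested Notch genes was called by limma, with 0 at an unadjusted p under 0.05, and Notch1, Jag1 and Hes1 lay at 0.11, 0.01 and 0.05. Wnt7b was not called with Lgr5-DTR replicate 2 left out (limma adjusted p = 0.0532). Wnt10a was not called with wild type replicate 3 left out (limma adjusted p = 0.0508). Wnt7b and Notch1 overlap a further gene model, which makes their FPKM less certain.

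Interleukin 1 family genes rose in most tested members. Il1rn, the natural antagonist of the interleukin 1 receptor, measured 58.1, 48.8 and 51.2 FPKM against 3.82, 1.04 and 1.16 FPKM (log2 difference 4.27, SE 0.31, limma adjusted p = 0.000575). Its Lgr5-DTR values lay close together, and its rise exceeded that in luminal cells (1.65, limma adjusted p = 0.021) by 2.62 (SE 0.45, limma adjusted p = 0.0083). Il1a, an alarm cytokine of epithelium, measured 9.07, 20.4 and 15.98 against 3.13, 0.753 and 0.876 FPKM (log2 difference 2.69, SE 0.38, limma adjusted p = 0.00495). Il33, another member that is kept in the nucleus, rose by 1.12 and the receptor gene Il1r1 by 1.097 (limma adjusted p = 0.0157 and 0.0101). Il1r1 was low, with a mean of 2.13 FPKM in Lgr5-DTR and 0.453 FPKM in wild type libraries. Il1b was at 4.37, 8.37 and 2.51 against 2.39, 0.129 and 0.189 FPKM and did not pass (log2 difference 1.76, limma adjusted p = 0.0554). Hence 4 of 7 tested members, of 17 in the tables, were higher and none lower, with a median of 1.12, and 4, 2, 3, 5, 2 and 3 were higher without each library. Of the neutrophil-attracting chemokine genes Cxcl2, Cxcl3 and Cxcl5 rose. Cxcl3 measured 10.5, 28.3 and 40.04 against 1.12, 0.413 and 0.104 FPKM (log2 difference 4.01, SE 0.45, limma adjusted p = 0.00221), Cxcl5 7.66, 8.05 and 8.25 against 2.47, 0.268 and 0.168 FPKM (log2 difference 2.38, SE 0.38, limma adjusted p = 0.0078), and Cxcl2 125, 217 and 230.5 against 71.7, 26.1 and 17.95 FPKM (log2 difference 2.47, limma adjusted p = 0.0143). Cxcl1 was at 212, 225 and 229 against 161, 25.8 and 77.7 FPKM and did not pass (log2 difference 1.67, limma adjusted p = 0.0872). These chemokines are close relatives in sequence, so their values are uncertain. Cx3cl1 fell from 78.1, 69.9 and 73.5 to 41.5, 34.6 and 31.3 FPKM (log2 difference -1.03, SE 0.15, limma adjusted p = 0.00495) and Cxcl12 from 18.1, 17.6 and 22.96 to 12.5, 4.02 and 4.28 FPKM (log2 difference -1.52, limma adjusted p = 0.0315). Cxcl10, an interferon-induced chemokine, was at 108, 13.5 and 13.04 against 99.5, 126 and 155 FPKM, with Lgr5-DTR replicate 1 at the wild type level (log2 difference -2.16, limma adjusted p = 0.0895). In all 3 of 13 tested chemokines were higher and 2 lower, and 4, 2, 2, 6, 2 and 2 were higher without each library. Cxcl12 was not called with Lgr5-DTR replicates 2 or 3 or wild type replicates 1, 2 or 3 left out (limma adjusted p = 0.0623 to 0.122). Il33 was not called with Lgr5-DTR replicates 2 or 3 or wild type replicate 2 left out (limma adjusted p = 0.0505 to 0.0813). Cxcl2 was not called with Lgr5-DTR replicates 2 or 3 or wild type replicates 2 or 3 left out (limma adjusted p = 0.0518 to 0.0856). Il1r1 was not called with Lgr5-DTR replicate 2 or wild type replicates 2 or 3 left out (limma adjusted p = 0.0521 to 0.0567). Cxcl12 was not called with the processing set as a covariate (limma adjusted p = 0.0543). Il1a, Il1b and Cxcl10 overlap a further gene model, which makes their FPKM less certain.

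Further genes of inflammation were called in both directions, where 6.50% of all tested genes were called higher and 4.46% lower. Nfkbiz, an inducible regulator of NF-kappa-B, rose from 13.9, 18.003 and 16.6 to 52.3, 44.3 and 45.4 FPKM (log2 difference 1.496, SE 0.15, limma adjusted p = 0.0015), and Tnfaip2, a TNF-induced gene, from 0.519, 0.273 and 0.321 to 2.34, 2.24 and 2.41 FPKM (log2 difference 1.28, SE 0.18, limma adjusted p = 0.0044). Tnfaip2 passed the filter through the Lgr5-DTR group alone. Il24, a cytokine of the interleukin 10 family, rose by 2.54 (limma adjusted p = 0.0216), whereas Icam1 and Lif fell by 0.66 and 0.77 (limma adjusted p = 0.0371 and 0.0334). Of 31 tested NF-kappa-B and cytokine genes 5 were higher and 3 lower, against 6, 3, 3, 6, 2 and 2 higher and 4, 0, 3, 2, 1 and 1 lower with the libraries left out in order. Among 19 interferon-induced genes 2 were higher, Usp18 by 1.198 (limma adjusted p = 0.0239) and Ifitm1 from 2.76, 4.06 and 3.26 to 19.5, 17.7 and 20.6 FPKM (log2 difference 2.22, SE 0.17, limma adjusted p = 0.000575). The other 17, among them Isg15 and Irf7, did not pass. Macrophage markers were low, with a summed level of 16.05 to 21.98 FPKM in Lgr5-DTR and 7.02 to 12.3 FPKM in wild type libraries. Of their 5 tested members C1qc, Lyz2 and Tyrobp were called higher, at 3.04, 5.26 and 3.84 against 1.53, 1.002 and 0.973 FPKM for Lyz2, and 3, 1, 2, 3, 0 and 0 were with each library left out. The remaining 7 members were too low to be tested. C1qc, Tyrobp and, named below, Upk3a passed the filter through the Lgr5-DTR group alone, with wild type means of 0.185, 0.278 and 0.0663 FPKM. Cd74, of antigen presentation, rose from 10.4, 4.07 and 3.31 to 23.8, 29.97 and 10.8 FPKM (log2 difference 1.72, limma adjusted p = 0.0435), 1 of 19 tested members of that list. The part of such cells in the inflammatory transcripts was not tested. Endothelial markers summed to 15.3 to 35.4 against 8.99 to 13.9 FPKM, with none of 6 tested called by limma and 3 at an unadjusted p under 0.05 (2703 of all 9755 tested genes), and urothelial markers to 26.8 to 36.3 against 16.7 to 21.6 FPKM, with Upk3a and Krt20 higher. Schwann cell markers summed to 22.3 to 32.6 against 20.3 to 26.3 FPKM and erythrocyte markers to 2.58 to 11.9 against 0.206 to 33.5 FPKM, with no member called. Il24 and C1qc were not called with Lgr5-DTR replicates 2 or 3 or wild type replicates 2 or 3 left out (limma adjusted p = 0.0664 to 0.143). Cd74 was not called with Lgr5-DTR replicates 1 or 2 or wild type replicates 2 or 3 left out (limma adjusted p = 0.126 to 0.181). Icam1 was not called with Lgr5-DTR replicates 2 or 3 or wild type replicates 1, 2 or 3 left out (limma adjusted p = 0.0703 to 0.155). Lif was not called with Lgr5-DTR replicate 2 or wild type replicates 1, 2 or 3 left out (limma adjusted p = 0.0719 to 0.133). Lyz2 was not called with Lgr5-DTR replicate 2 or wild type replicates 2 or 3 left out (limma adjusted p = 0.0553 to 0.0628). Usp18 was not called with Lgr5-DTR replicate 3 or wild type replicates 1 or 2 left out (limma adjusted p = 0.0638 to 0.108). Krt20 was not called with wild type replicate 2 left out (limma adjusted p = 0.0549). Tyrobp was not called with wild type replicates 2 or 3 left out (limma adjusted p = 0.0634 to 0.0757). C1qc was not called with quantile scaling (limma adjusted p = 0.0512). Cd74 was not called at a pseudocount of 0.1 (limma adjusted p = 0.0592). Icam1, Lif and Usp18 were not called with the processing set as a covariate (limma adjusted p = 0.0601 to 0.0761). Tnfaip2, Icam1, Lif, C1qc, Tyrobp and Cd74 were not called in the fit of all 19 libraries (limma adjusted p = 0.0543 to 0.399). Cd74 overlaps a further gene model, which makes its FPKM less certain.

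Genes of cholesterol synthesis and uptake fell in 12 of 24 tested members. In this pathway the transcription factor SREBP2, encoded by Srebf2, switches on the enzymes when sterols are scarce, together with the factor NF-Y, which recognises CCAAT. Promoters of 4 of the called enzymes are shown to let the shared elements be seen. Each line gives the 180 bases before the annotated start, from RefSeq on GRCm38.p6, with CCAAT or its complement ATTGG and the sterol element TCACNCCAC in capitals.
Hmgcs1: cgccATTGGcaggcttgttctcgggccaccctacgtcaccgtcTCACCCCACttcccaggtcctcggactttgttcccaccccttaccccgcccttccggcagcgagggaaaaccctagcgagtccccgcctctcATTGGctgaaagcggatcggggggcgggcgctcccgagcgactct
Idi1: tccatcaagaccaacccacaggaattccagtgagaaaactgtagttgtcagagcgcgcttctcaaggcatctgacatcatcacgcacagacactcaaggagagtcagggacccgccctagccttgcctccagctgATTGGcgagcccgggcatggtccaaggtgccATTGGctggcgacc
Cyp51: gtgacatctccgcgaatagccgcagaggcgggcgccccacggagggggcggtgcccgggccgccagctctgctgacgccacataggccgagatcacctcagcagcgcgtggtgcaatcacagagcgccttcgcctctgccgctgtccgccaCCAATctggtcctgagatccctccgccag
Hsd17b7: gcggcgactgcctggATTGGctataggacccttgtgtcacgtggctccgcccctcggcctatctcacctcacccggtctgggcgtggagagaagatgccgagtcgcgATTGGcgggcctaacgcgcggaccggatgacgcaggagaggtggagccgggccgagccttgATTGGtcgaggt
These are chr13:119690171-119690350 and chr13:8885426-8885605 on the plus strand and chr5:4104698-4104877 and chr1:169969206-169969385 on the minus strand. On either strand of the 300-base window CCAAT was found in 6 of the 7 called-lower members that have a promoter in the table, in 8 of 9 members that were not called, and in 37.4% of all promoters. It did not separate called from uncalled members. Here too a gene counted if any of its promoters matched, while the shares of all promoters count single promoters. The sterol element was found in Hmgcs1 alone of these 16 and in 1.24% of all promoters.

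Enzymes from the start to the late steps of the pathway fell. Hmgcs1, which makes the precursor of mevalonate, measured 15.8, 6.95 and 7.36 FPKM against 39.3, 29.6 and 29.2 FPKM (log2 difference -1.69, SE 0.29, limma adjusted p = 0.00949). Idi1, an isomerase of isoprenoid precursors, measured 2.93, 1.31 and 0.935 against 24.3, 13.3 and 11.4 FPKM (log2 difference -2.66, SE 0.34, limma adjusted p = 0.00304). In both the 3 Lgr5-DTR libraries lay below all wild type libraries, and wild type replicate 1 was highest. Further down, Cyp51, a lanosterol demethylase, measured 9.43, 4.13 and 5.18 against 33.2, 22.9 and 25.4 FPKM (log2 difference -2.01, SE 0.27, limma adjusted p = 0.0033), and Hsd17b7, a later reductase, 1.16, 1.16 and 1.53 against 7.88, 4.52 and 4.09 FPKM (log2 difference -1.47, SE 0.24, limma adjusted p = 0.0075). Fdft1, squalene synthase, measured 0, 8.22 and 0 FPKM, listed at 0 in replicates 1 and 3, against 26.2, 18.6 and 15.8 FPKM in wild type, and it overlaps Ctsb, so its value is uncertain. The regulator Srebf2 itself fell from 38.3, 29.3 and 28.4 to 10.6, 14.1 and 15.8 FPKM (log2 difference -1.19, SE 0.19, limma adjusted p = 0.00694). Insig1, a sterol sensor and target of the pathway, measured 5.75, 0.765 and 0.714 against 18.8, 12.5 and 11.4 FPKM (log2 difference -2.45, limma adjusted p = 0.019), and Stard4, a sterol transporter, fell by 1.51 (limma adjusted p = 0.0124). Fdft1 was not called with Lgr5-DTR replicates 1 or 3 or wild type replicates 1, 2 or 3 left out (limma adjusted p = 0.0744 to 0.177). Insig1 was not called with Lgr5-DTR replicates 2 or 3 or wild type replicates 1, 2 or 3 left out (limma adjusted p = 0.0527 to 0.0839). Stard4 was not called with Lgr5-DTR replicate 2 or wild type replicate 3 left out (limma adjusted p = 0.0513 to 0.0623). Fdft1 was not called at a pseudocount of 0.1 (limma adjusted p = 0.13). Srebf2 overlaps a further gene model, which makes its FPKM less certain.

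Not every member moved. Msmo1, a sterol oxidase, measured 102, 82.7 and 72.6 against 109, 65.99 and 67.3 FPKM (log2 difference 0.11, 95% interval of plus or minus 0.51, limma adjusted p = 0.777). Its groups overlapped. Sc5d and Scap were at 0.02 and 0.41 and did not pass (limma adjusted p = 0.966 and 0.204). Of 24 tested members, of 27 in the tables, 12 were called lower and none higher, with a median of -0.99 against 0.02 for all genes. Leaving out the libraries in turn gave 13, 7, 8, 8, 8 and 7 lower. In luminal cells, where 21 of them were tested, none was called and the median was -0.195, and the basal and luminal changes differed for 2 members, both more negative in basal cells, where Idi1 differed by -1.95 (limma adjusted p = 0.0436) and Cyp51 by -1.59 (limma adjusted p = 0.0379). Of 15 fatty acid synthesis genes 1 was higher and 2 were lower, with 8, 0, 1, 2, 1 and 0 lower when the libraries were left out in turn. Among all tested genes 6.50% were called higher and 4.46% lower. Fasn, the synthase, was at 13.5, 10.01 and 9.33 against 17.1, 18.8 and 15.5 FPKM without passing (log2 difference -0.61, limma adjusted p = 0.0583). Me1, which supplies reducing power, rose by 0.85, and the desaturase Fads1 fell by 1.64 (limma adjusted p = 0.046 and 0.0494). Me1 and Fads1 were not called with Lgr5-DTR replicates 2 or 3 or wild type replicates 2 or 3 left out (limma adjusted p = 0.124 to 0.189). Me1 was not called with median-ratio scaling (limma adjusted p = 0.0593). Me1 was not called with plain empirical Bayes (limma adjusted p = 0.0568). Fads1 was not called at a pseudocount of 0.1 (limma adjusted p = 0.0671). Me1 and Fads1 were not called with the processing set as a covariate (limma adjusted p = 0.0548 to 0.0863). Me1 was not called in the fit of all 19 libraries (limma adjusted p = 0.0657). Me1 and Fads1 overlap a further gene model, which makes their FPKM less certain.

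**Figure D3:**
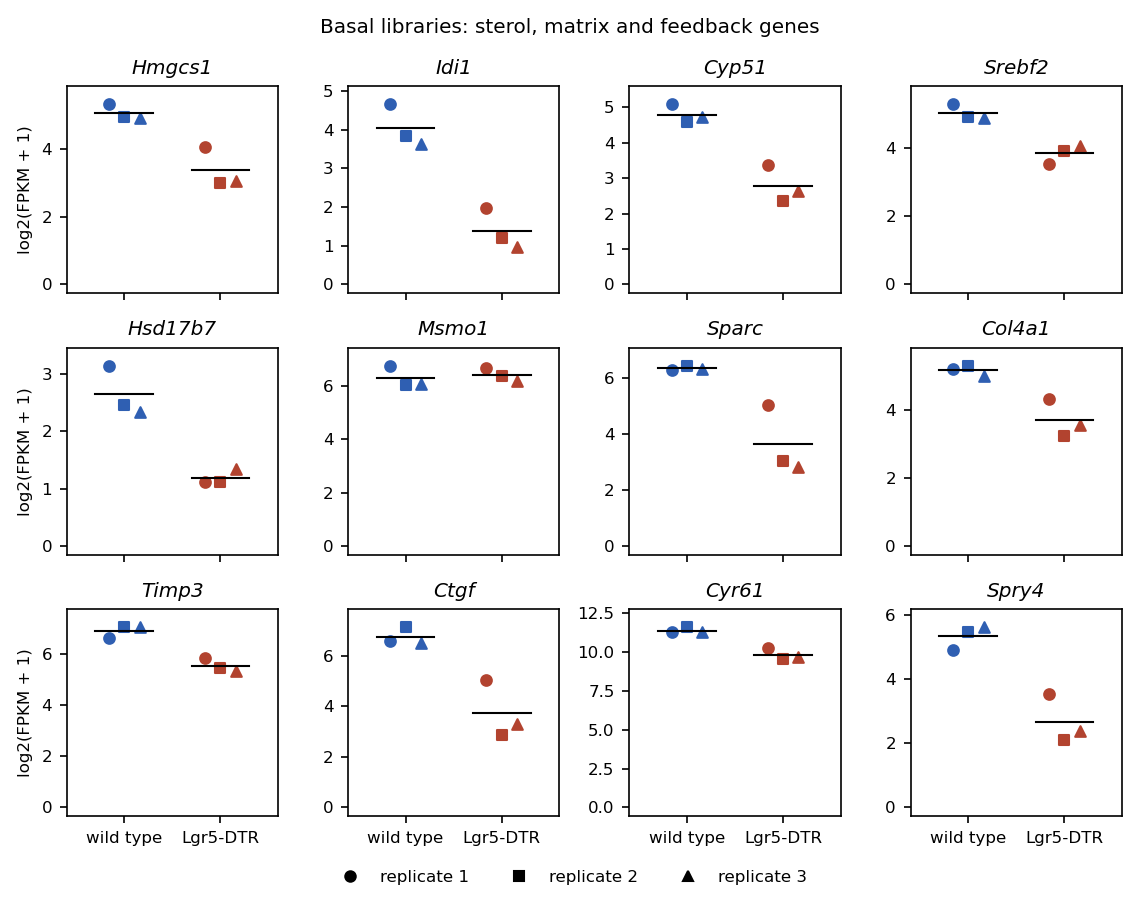
Each panel plots log2(FPKM + 1) of 1 gene in the 3 wild type (blue) and 3 Lgr5-DTR (red) basal libraries, with a shape for each replicate number and a bar at the group mean. All genes but Msmo1, whose groups overlap, were lower in the 3 Lgr5-DTR libraries. Lgr5-DTR replicate 1 stood nearest to wild type for Hmgcs1, Idi1, Cyp51, Sparc, Col4a1, Timp3, Ctgf, Cyr61 and Spry4, but not for Srebf2 and Hsd17b7.

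Of the tested matrix genes 12 fell in basal cells, basement membrane collagens among them. Sparc, a secreted collagen-binding protein, measured 31.5, 7.103 and 6.12 FPKM against 77.1, 85.5 and 78.5 FPKM (log2 difference -2.72, SE 0.504, limma adjusted p = 0.0134). Lgr5-DTR replicate 1 lay between the other Lgr5-DTR libraries and wild type. Col4a1, a collagen of basement membranes, measured 18.9, 8.37 and 10.7 against 35.95, 38.7 and 31.3 FPKM (log2 difference -1.48, SE 0.26, limma adjusted p = 0.0103), Col16a1 25.8, 10.5 and 15.3 against 40.6, 70.1 and 56.8 FPKM (log2 difference -1.696, limma adjusted p = 0.0133) and Col18a1 109, 93.9 and 155 against 252, 243 and 214 FPKM (log2 difference -1.01, limma adjusted p = 0.015). Timp3, an inhibitor of metalloproteinases, measured 57.6, 43.7 and 39.4 against 98.02, 134 and 133 FPKM (log2 difference -1.36, SE 0.19, limma adjusted p = 0.00436), the protease gene Adamts1 157, 156 and 136 against 288, 396 and 354 FPKM (log2 difference -1.195, SE 0.17, limma adjusted p = 0.00386), and Fbln2, a fibulin of elastic fibres, 3.88, 0.912 and 1.28 against 7.83, 9.73 and 12.4 FPKM (log2 difference -1.97, limma adjusted p = 0.0104). Mmp7, the metalloproteinase matrilysin, did the opposite and rose from 18.03, 21.7 and 28.5 to 256, 244 and 115 FPKM (log2 difference 3.06, SE 0.31, limma adjusted p = 0.00162), and Ecm1 rose by 1.55 (limma adjusted p = 0.0078). Of 28 tested members, of 37 in the tables, 12 were lower and 2 higher, with a median of -0.64. Without each library in turn 14, 5, 7, 11, 2 and 3 were lower. The basement membrane linker Nid1 and the laminin chain Lamb1 fell by 1.12 and 1.19 (limma adjusted p = 0.00993 and 0.033), whereas Lamb3, Itga6 and Itgb4 of the hemidesmosome stood at 0.04, 0.14 and 0.32 and did not pass. Plec, the hemidesmosome linker plectin, and Itgb1 rose by 1.12 and 0.87 (limma adjusted p = 0.00304 and 0.0361). Sparc, Lamb1 and Itgb1 were not called with Lgr5-DTR replicates 2 or 3 or wild type replicates 2 or 3 left out (limma adjusted p = 0.0543 to 0.159). Col16a1 and Fbln2 were not called with wild type replicates 2 or 3 left out (limma adjusted p = 0.0534 to 0.0684). Col18a1 was not called with Lgr5-DTR replicate 2 or wild type replicates 2 or 3 left out (limma adjusted p = 0.0534 to 0.0771). Col4a1 was not called with wild type replicate 2 left out (limma adjusted p = 0.0593). Nid1 was not called with wild type replicate 3 left out (limma adjusted p = 0.0508). Itgb1 was not called with the processing set as a covariate (limma adjusted p = 0.0631). Timp3, Mmp7, Ecm1, Itga6, Itgb4 and Plec overlap a further gene model, which makes their FPKM less certain.

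Fibroblast markers were lower in the same direction as the matrix genes. Their summed level was 318 to 642 FPKM in Lgr5-DTR and 739.6 to 889 FPKM in wild type basal libraries, against 7391 to 7640.4 FPKM in wild type stromal cells. Nearly all of it was Dcn (decorin), at 636, 313 and 330.0 against 729.6, 844 and 879.8 FPKM (log2 difference -1.01, limma adjusted p = 0.0446). Of the 14 markers 9 stayed under 1 FPKM in all basal libraries and 4 were tested, of which Dcn and Col3a1 were called lower, and 3, 0, 0, 0, 0 and 0 were with each library left out. Smooth muscle markers summed to 262 to 336 against 438 to 498 FPKM, most of it Smtn. Tagln, an actin-binding protein, fell from 34.4, 28.6 and 23.4 to 8.19, 5.47 and 8.41 FPKM (log2 difference -1.84, SE 0.21, limma adjusted p = 0.00179), and Myl9, a myosin light chain, from 6.9998, 8.84 and 12.2 to 3.503, 3.32 and 3.45 FPKM (log2 difference -1.196, SE 0.21, limma adjusted p = 0.00894). Acta2, smooth muscle actin, was not called at 2.27, 1.95 and 1.41 against 3.297, 2.996 and 5.17 FPKM (log2 difference -0.73, limma adjusted p = 0.073). The part of stromal RNA in the matrix result was not tested. Among 22 tested actomyosin genes 3 were lower and none higher, with 5 lower under quantile scaling and 1 in the fit of all 19 libraries, and the abundant Tpm1, Actn4 and Tagln2 did not pass. Dcn and Col3a1 were not called with Lgr5-DTR replicates 2 or 3 or wild type replicates 1, 2 or 3 left out (limma adjusted p = 0.0506 to 0.182). Smtn was not called with Lgr5-DTR replicates 2 or 3 or wild type replicates 2 or 3 left out (limma adjusted p = 0.122 to 0.168). Dcn and Smtn were not called with plain empirical Bayes (limma adjusted p = 0.0508 to 0.0516). Dcn and Smtn were not called with the processing set as a covariate (limma adjusted p = 0.0579 to 0.0764). Col3a1, Smtn, Tagln and Myl9 were not called in the fit of all 19 libraries (limma adjusted p = 0.0593 to 0.247). Tagln and Actn4 overlap a further gene model, which makes their FPKM less certain.

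Matrix genes with a basal change more negative than the luminal one numbered 12 of 23. Over 9098 genes tested in both, the basal and luminal changes differed in 388 (4.26%), with the basal change more positive in 99 and more negative in 289. With quantile scaling the split was 185 and 239. Leaving out Lgr5-DTR replicates 1, 2 and 3 and wild type replicates 1, 2 and 3 of the basal cells in turn gave 787, 140, 220, 450, 149 and 143 such genes. Of 23 matrix genes tested in both, 12 were more negative in basal cells and 1, Mmp7, was more positive. Their median change was -0.75 in basal and 0.97 in luminal cells, where 7 were called higher, against medians of 0.02 and 0.12 for all genes. Fibroblast markers summed to 85.1 to 177 FPKM in Lgr5-DTR and 54.8 to 69.1 FPKM in wild type luminal libraries. Of 3 such markers tested in both populations 2 were more negative in basal cells, with medians of -0.87 in basal and 1.15 in luminal cells, and their part in the matrix difference was not tested. Sparc was -2.72 in basal and 1.47 in luminal cells, a difference of -4.19 (SE 0.65, limma adjusted p = 0.00626). Col4a1 was -1.48 and 1.18, a difference of -2.66 (SE 0.35, limma adjusted p = 0.00266). Thbs1, thrombospondin 1, was not called in basal cells at 667, 439.9 and 499 against 506, 892 and 650.5 FPKM, yet its change differed from the luminal one by -2.13 (limma adjusted p = 0.0335). Outside the list Pde4b, a phosphodiesterase that degrades cyclic AMP, fell from 259, 269.9 and 261 to 101, 83.2 and 86.3 FPKM in basal cells (log2 difference -1.54, SE 0.14, limma adjusted p = 0.000959) and was at 0.49 in luminal cells. Aebp1, a matrix-associated protein, and Ptn, the growth factor pleiotrophin, were lower in basal cells by 1.29 and 1.21 (limma adjusted p = 0.0125 and 0.00595) and higher in luminal cells by 2.47 and 2.11 (limma adjusted p = 0.0149 and 0.0191). Plac8 rose in basal cells from 2.004, 2.24 and 2.201 to 18.3, 20.9 and 10.2 FPKM (log2 difference 2.42, SE 0.25, limma adjusted p = 0.0015). Its luminal change was -0.21 (limma adjusted p = 0.518), a difference of 2.63 (limma adjusted p = 0.00173). Sparc was not called with Lgr5-DTR replicates 2 or 3 or wild type replicates 2 or 3 left out (limma adjusted p = 0.0543 to 0.0777). Aebp1 was not called with Lgr5-DTR replicate 2 or wild type replicate 2 left out (limma adjusted p = 0.0571 to 0.0661). Col4a1 was not called with wild type replicate 2 left out (limma adjusted p = 0.0593). Mmp7 and Aebp1 overlap a further gene model, which makes their FPKM less certain.

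**Figure D4:**
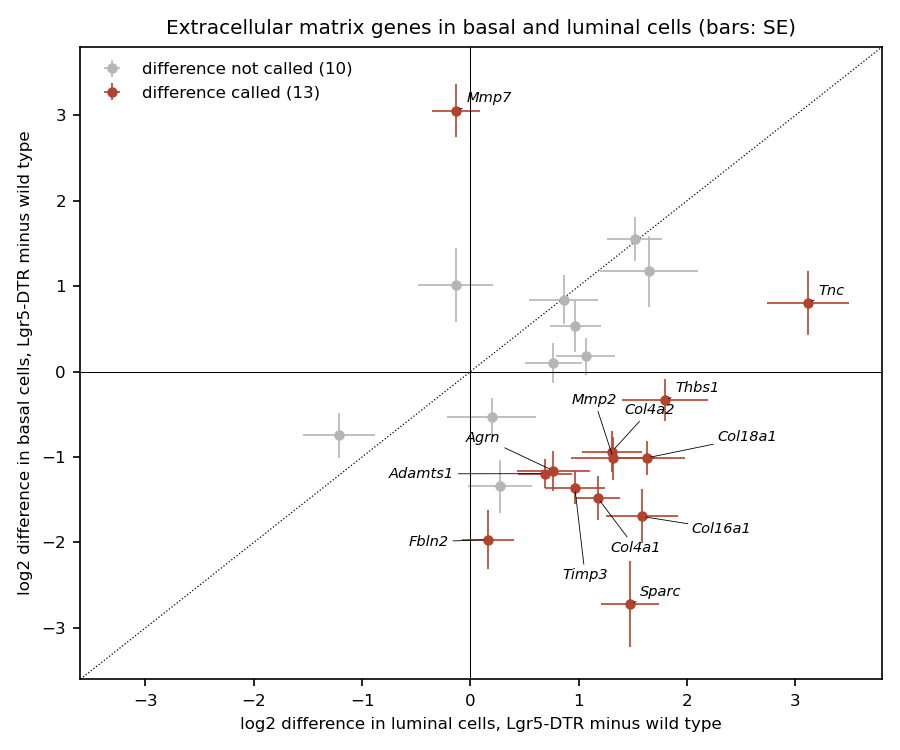
Each point is 1 of 23 extracellular matrix genes tested in both populations, with the log2 difference, Lgr5-DTR minus wild type, in luminal cells on the horizontal axis and in basal cells on the vertical axis, and bars of 1 SE. Of the 13 red points, whose basal and luminal changes differed in limma, 12 lie below the dotted line of equal change and Mmp7 lies above it.

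Target genes of YAP and TAZ, the coactivators that answer to tension and cell density, split. Ctgf, a matricellular protein, measured 32.3, 6.32 and 8.84 FPKM against 94.8, 139.8 and 91.1 FPKM (log2 difference -3.01, SE 0.501, limma adjusted p = 0.00922), and Cyr61, its relative, 1222, 749.8 and 798 against 2456, 3077 and 2463 FPKM (log2 difference -1.56, SE 0.22, limma adjusted p = 0.004). In both the lowest wild type library exceeded the highest Lgr5-DTR library, which was replicate 1. Fjx1 and Nt5e fell by 1.08 and 1.15 (limma adjusted p = 0.00713 and 0.00954). Ajuba, a junction-associated LIM protein, rose from 61.99, 39.1 and 43.7 to 104, 111 and 167 FPKM (log2 difference 1.38, SE 0.23, limma adjusted p = 0.00845), Myof, a membrane-repair protein, from 4.82, 4.75 and 4.86 to 12.9, 15.3 and 16.3 FPKM (log2 difference 1.44, SE 0.15, limma adjusted p = 0.00162), and Gadd45b, a stress gene, from 62.5, 60.1 and 81.9 to 232, 198 and 157 FPKM (log2 difference 1.51, SE 0.19, limma adjusted p = 0.003). Amotl2, Axl and Crim1 lay at 0.0997, 0.16 and 0.09 and did not pass. Of 21 tested members 3 were higher and 4 lower, with a median of -0.08, and 3, 3, 3, 3, 3 and 3 were higher and 6, 4, 3, 4, 3 and 3 lower without each library. Cyr61 also differed from its luminal change of 0.82 by -2.38 (SE 0.38, limma adjusted p = 0.0062). Ctgf was not called with Lgr5-DTR replicate 3 or wild type replicate 2 left out (limma adjusted p = 0.0567 to 0.0636). Nt5e was not called with wild type replicate 3 left out (limma adjusted p = 0.0561).

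Genes of cell junctions rose more often than they fell. The desmosomal plakophilins Pkp1 and Pkp3 rose from 20.9, 26.9 and 28.6 to 46.1, 49.9 and 60.9 FPKM (log2 difference 1.01, SE 0.17, limma adjusted p = 0.00886) and from 112, 105 and 107 to 211, 222 and 238 FPKM (log2 difference 1.04, SE 0.14, limma adjusted p = 0.00304). The desmocollins Dsc2 and Dsc3 rose by 1.04 and 0.997 (limma adjusted p = 0.0162 and 0.0106), and the claudin Cldn23 by 1.97 (limma adjusted p = 0.00713). Cldn4, the most abundant claudin, was at 3168, 6702 and 4468 against 3701, 4263 and 4038 FPKM, and E-cadherin, Cdh1, at 580.4, 836 and 907 against 919, 933 and 749 FPKM, and neither passed. Cdh3, the cadherin of basal cells, fell from 47.4, 36.7 and 32.7 to 20.6, 16.1 and 18.99 FPKM (log2 difference -1.02, SE 0.18, limma adjusted p = 0.00953). Of 27 tested members 8 were higher and 1 lower, with a median of 0.39, and without each library 11, 4, 5, 7, 5 and 4 were higher. Cdh3 was not called with Lgr5-DTR replicate 2 left out (limma adjusted p = 0.0544). Dsc2 was not called with Lgr5-DTR replicates 2 or 3 or wild type replicates 2 or 3 left out (limma adjusted p = 0.0591 to 0.0774). Dsc3 was not called with Lgr5-DTR replicate 2 or wild type replicate 3 left out (limma adjusted p = 0.0561 to 0.0568). Pkp3 was not called in the fit of all 19 libraries (limma adjusted p = 0.085).

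Annexins and S100 proteins, calcium-binding partners at membranes, rose in 9 of 20 tested members. Anxa1 measured 645, 1274 and 1118 FPKM against 195, 104 and 107 FPKM (log2 difference 2.898, SE 0.32, limma adjusted p = 0.00182), and Anxa8 78.9, 209 and 155 against 17.2, 5.48 and 5.11 FPKM (log2 difference 3.94, SE 0.47, limma adjusted p = 0.00284). For both the lowest Lgr5-DTR library was well above the highest wild type library. S100a3 measured 18.7, 22.5 and 20.6 against 2.70001, 2.55 and 1.82 FPKM (log2 difference 2.69, SE 0.17, limma adjusted p = 0.000248) and S100a6 1494, 2669 and 1839 against 878, 516 and 655 FPKM (log2 difference 1.54, SE 0.26, limma adjusted p = 0.0088). Anxa2, with its partner S100a10, rose by 1.28, and S100a10 and S100a11 rose by 1.01 and 1.26 (limma adjusted p = 0.0109, 0.0169 and 0.016). Anxa6 fell by 0.93 (limma adjusted p = 0.0186). Of 9 tested annexins 5 were higher and 1 lower, with a median of 0.699, and of 11 S100 genes 4 were higher and none lower, with a median of 0.85. Leaving out each library in turn gave 7, 2, 3, 5, 2 and 2 higher annexins and 6, 2, 5, 4, 2 and 2 higher S100 genes. Over 8980 genes tested in both populations the basal and stromal changes differed in 268 (2.98%), with 188 more positive in basal cells and 80 more negative (154 and 123 with quantile scaling), and 5 of 9 annexins and 5 of 9 S100 genes were among the 188. Anxa8 was -1.83 in stromal cells (limma adjusted p = 0.00365), 5.77 away from its basal change (SE 0.53, limma adjusted p = 4.69e-05), and Dmkn -1.71 (limma adjusted p = 0.0202), 7.27 away (SE 0.66, limma adjusted p = 4.69e-05). Luminal cells shared the rise. Of 8 annexins and 9 S100 genes tested in basal and luminal cells, none had changes that differed in limma. The annexin median was 0.612 in basal and 0.676 in luminal cells, and the S100 median 0.809 and 1.224. In luminal cells 2 annexins and 3 S100 genes were called higher and none lower. The count of 268 was 385, 118, 177, 239, 135 and 134 without the basal libraries in the order above. Anxa2, S100a10 and S100a11 were not called with Lgr5-DTR replicate 2 or wild type replicates 2 or 3 left out (limma adjusted p = 0.0605 to 0.086). Anxa6 was not called with Lgr5-DTR replicates 2 or 3 or wild type replicates 2 or 3 left out (limma adjusted p = 0.0617 to 0.0924). Anxa8 and Anxa2 overlap a further gene model, which makes their FPKM less certain.

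Of the immediate early genes 4 fell and none rose. Atf3, a stress-induced transcription factor, fell from 560.2, 873 and 976 to 403, 211 and 153 FPKM (log2 difference -1.73, limma adjusted p = 0.0191), and Zfp36, which destabilises cytokine transcripts, from 368, 454 and 498 to 241, 216 and 191 FPKM (log2 difference -1.02, limma adjusted p = 0.00857). The 21 tested members had a median of -0.52. Jun and Junb, AP-1 subunits, were at -0.24 and -0.24 and did not pass (limma adjusted p = 0.491 and 0.455). With each library left out 11, 2, 2, 4, 0 and 0 were lower. Zfp36 was higher in luminal cells (0.91, limma adjusted p = 0.021), a difference of -1.92 (SE 0.23, limma adjusted p = 0.00173). Immediate early genes also answer to the handling of dissociated cells, and the part of handling was not tested. None of 16 heat shock genes passed in limma, with 5 at an unadjusted p under 0.05, where Hspa1a was at 470.1, 119 and 101 against 158, 291 and 364 FPKM and Lgr5-DTR replicate 1 was the highest of the 6. Of the 19 cell cycle inhibitors and p53 targets 4 were higher and 3 lower. Each omission in turn left 3, 1, 3, 2, 1 and 2 higher and 4, 1, 1, 2, 1 and 1 lower. Eda2r, a receptor that p53 induces, rose from 2.74, 2.07 and 1.61 to 7.29, 10.1 and 8.905 FPKM (log2 difference 1.64, SE 0.201, limma adjusted p = 0.00241), and Gdf15, a secreted stress factor, fell from 95.5, 50.03 and 69.3 to 21.7, 27.5 and 27.1 FPKM (log2 difference -1.42, SE 0.23, limma adjusted p = 0.00731). Cdkn1a, the inhibitor p21, was at 524, 554 and 364 against 350.4, 398 and 415 FPKM without passing (log2 difference 0.29, limma adjusted p = 0.373). Of 37 proliferation genes 12 reached the filter and limma called none, with 4 at an unadjusted p under 0.05. Among all 9755 tested genes 2703 lay under that unadjusted p. Atf3 was not called with Lgr5-DTR replicate 2 or wild type replicates 2 or 3 left out (limma adjusted p = 0.0798 to 0.0893). Zfp36 was not called with wild type replicates 2 or 3 left out (limma adjusted p = 0.0502 to 0.0519). Zfp36 was not called in the fit of all 19 libraries (limma adjusted p = 0.0876).

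Single genes of other metabolic pathways changed, where 6.50% of all tested genes were called higher and 4.46% lower. Pdk4, which holds back pyruvate oxidation, fell from 17.6, 24.05 and 18.7 to 5.53, 4.03 and 3.31 FPKM (log2 difference -2.01, SE 0.203, limma adjusted p = 0.00142). Stra6, the membrane receptor for retinol, rose by 1.24 (limma adjusted p = 0.0103). With Aldh1a3, 3 of 15 retinoid genes were higher and 1 was lower, which became 4, 2, 2, 2, 2 and 1 higher and 6, 0, 0, 0, 0 and 1 lower without each library. Cyp2b10, a cytochrome of drug metabolism, rose from 2.801, 0.523 and 0.0412 to 17.9, 60.6 and 30.9 FPKM (log2 difference 4.196, SE 0.54, limma adjusted p = 0.00322), and the carboxylesterase Ces1d fell from 76.6, 106 and 102 to 41.4, 18.6 and 15.2 FPKM (log2 difference -1.996, limma adjusted p = 0.00907). Of 26 xenobiotic enzymes 2 were higher and 5 lower, and 10, 1, 3, 3, 0 and 1 were lower without each library. In prostaglandin signalling the receptors Ptger3 and Ptger4 fell from 16.5, 23.6 and 20.3 to 9.07, 5.92 and 4.89 FPKM (log2 difference -1.49, SE 0.23, limma adjusted p = 0.0057) and from 40.5, 44.1 and 37.5 to 23.3, 15.5 and 19.03 FPKM (log2 difference -1.06, SE 0.17, limma adjusted p = 0.00766), and the transporter Slco2a1 from 154, 134 and 99.1 to 52.9, 36.2 and 54.2 FPKM (log2 difference -1.42, SE 0.22, limma adjusted p = 0.00595). Ptgs1, a cyclooxygenase, rose by 0.99 and Ptges, a synthase, fell by 0.77 (limma adjusted p = 0.0186 and 0.00921). So 4 of 11 members were lower and 1 was higher, with a median of -0.77 and 5, 3, 5, 4, 4 and 3 lower without each library. Sgk1, a kinase gene induced by steroids, rose from 115, 146 and 140.0 to 483, 343 and 280.4 FPKM (log2 difference 1.43, SE 0.21, limma adjusted p = 0.00552). It was 1 of 3 higher among 16 androgen-responsive genes, of which 1 was lower, with a median of -0.09 for the list. Ptgs1 was not called with Lgr5-DTR replicates 2 or 3 or wild type replicates 1 or 3 left out (limma adjusted p = 0.05 to 0.0769). Ptges was not called with Lgr5-DTR replicate 2 or wild type replicate 3 left out (limma adjusted p = 0.053 to 0.0571). Ces1d was not called with wild type replicate 2 left out (limma adjusted p = 0.0517). Stra6 was not called with wild type replicate 3 left out (limma adjusted p = 0.0503). Slco2a1 and Ptges were not called in the fit of all 19 libraries (limma adjusted p = 0.144 to 0.305).

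Ribosomal protein and oxidative phosphorylation genes were seldom called. None of 83 cytosolic ribosomal protein genes was called by limma, with 1 at an unadjusted p under 0.05 and a median of 0.00, and 1 of 76 oxidative phosphorylation genes was lower, Cox6b2, with a median of -0.197 for the list. Without Lgr5-DTR replicate 1, 18 of these 76 were lower. Of 30 glycolysis and hypoxia genes 4 were lower, 9, 1, 2, 1, 1 and 1 without each library in turn, and Gapdh was at 165, 153 and 144 against 210.2, 168 and 162 FPKM. With quantile scaling 8 glycolysis, 6 oxidative phosphorylation and 3 endoplasmic reticulum stress genes were lower. Of 22 endoplasmic reticulum stress genes 1 was lower, Xbp1 (log2 difference -0.57, limma adjusted p = 0.0401), and without each library 8, 0, 0, 0, 0 and 0 were lower. The plot of gene lists sets these counts side by side. Xbp1 was not called with Lgr5-DTR replicates 2 or 3 or wild type replicates 1, 2 or 3 left out (limma adjusted p = 0.0715 to 0.159). Cox6b2 was not called with Lgr5-DTR replicate 2 or wild type replicates 2 or 3 left out (limma adjusted p = 0.0739 to 0.0799). Xbp1 was not called with plain empirical Bayes (limma adjusted p = 0.0551). Xbp1 was not called with the processing set as a covariate (limma adjusted p = 0.0811). Xbp1 was not called in the fit of all 19 libraries (limma adjusted p = 0.0686).

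**Figure D5:**
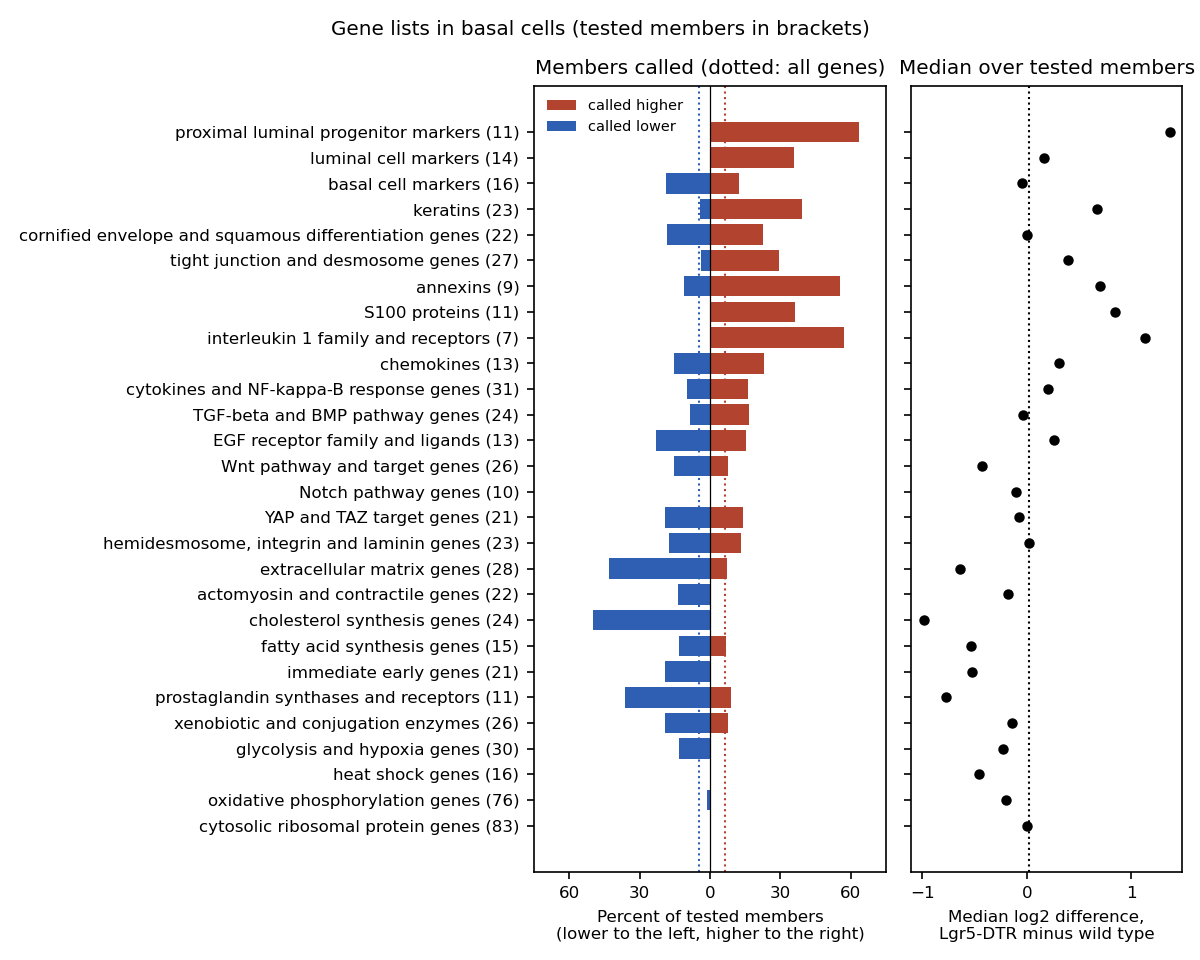
The left panel shows, for each gene list drawn, the percent of tested members called higher (red, to the right) and lower (blue, to the left) in Lgr5-DTR basal cells, with dotted lines at 6.50% and 4.46% for all genes, and the right panel shows the median log2 difference of the tested members with a dotted line at 0.02. The red bar of the proximal luminal markers stands for 7 of 11 genes, and the blue bars of the cholesterol synthesis and extracellular matrix genes stand for 12 of 24 and 12 of 28. The lists were chosen with earlier results of these data known.

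Other genes with large changes belong to none of these lists. Among those that rose were Tuba8, an alpha tubulin, from 4.49, 1.37 and 0.8002 to 21.5, 58.4 and 44.7 FPKM (log2 difference 3.78, SE 0.47, limma adjusted p = 0.00304), and Basp1, a membrane protein of neurites, from 3.99, 3.87 and 3.599 to 29.3, 75.8 and 34.2 FPKM (log2 difference 3.17, SE 0.32, limma adjusted p = 0.00152). Ttc9, a tetratricopeptide protein, rose from 20.98, 10.6 and 4.94 to 90.6, 148 and 183 FPKM (log2 difference 3.57, SE 0.45, limma adjusted p = 0.0031) and Slc14a1, a urea transporter, by 3.32 (limma adjusted p = 0.0216). Among those that fell were Scpep1, a serine carboxypeptidase, from 962, 1435 and 1513 to 500.1, 152 and 131 FPKM (log2 difference -2.56, limma adjusted p = 0.0125), and Rerg, a small GTPase, from 22.8, 11.8 and 19.6 to 6.03, 1.66 and 2.03 FPKM (log2 difference -2.26, SE 0.38, limma adjusted p = 0.00954). Some estimates switched between 0 and a clear value where annotated genes overlap. Taf10, a subunit of a general transcription factor, measured 176, 137 and 127 FPKM in wild type and had 0 listed for each Lgr5-DTR library, and its model overlaps that of Ilk. Cox16, at 9.13, 15.9 and 12.9 FPKM in wild type, likewise had 0 listed for each Lgr5-DTR library, and Mettl3, which overlaps Tox4, was at 12.3, 10.7 and 11.8 FPKM in Lgr5-DTR and listed at 0 in wild type. Since genes that every cell uses are among them, no fold against 0 is given. Slc14a1 and Scpep1 were not called with Lgr5-DTR replicates 2 or 3 or wild type replicates 2 or 3 left out (limma adjusted p = 0.0518 to 0.115). Slc14a1 was not called at a pseudocount of 0.1 (limma adjusted p = 0.0659). Scpep1, Taf10, Cox16 and Mettl3 overlap a further gene model, which makes their FPKM less certain.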

How the data were processed

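Total RNA of sorted basal cells was sequenced after low-input cDNA amplification. Per the submitters' processing notes, reads were handled with TopHat2 and Cufflinks on mm10, with versions not given in the sources used here. The authors deposited 1 table per library of transcript FPKM, which Cufflinks estimates and need not reflect whole reads. The same deposited tables give a coverage column, from which the aligned bases per library (7.13 to 9.38 gigabases) were computed. Counts were not used here, so no counting interval is given and precision rests on the spread of 3 libraries a group.

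FPKM were summed over the rows of a gene. Genes at 1 FPKM or more in at least 3 of the 6 basal libraries were kept, leaving out 2 genes (Amd1 and Ly6e) of failed or capped status. log2(FPKM + 1) was tested with limma 3.58.1 under R 4.3.3 (robust empirical Bayes with a mean trend, two-sided, Benjamini-Hochberg adjusted p at 0.05), and interactions with luminal and stromal libraries were fitted likewise. Named genes were the 20 largest rises and falls among genes averaging 5 FPKM or more in either group with separated groups, up to 8 called members per direction and 6 uncalled members of each list, and the 10 interactions of smallest p per population. The members and lists were chosen with earlier results of these data known, and the comparisons of basal with luminal and with stromal cells share the basal libraries. Replicate numbers follow the order in the sample descriptions. Deviations of same-numbered libraries from their group means correlated at -0.53, -0.23 and -0.40, so the numbers were not taken to pair libraries. The sample titles carry separate numbers, some of which recur across populations of 1 genotype. Whether these title numbers mark shared animals was not given in the sources used here. The main interaction fits treated all libraries as independent, and an alternative took the title number as a random block. Alternatives changed the pseudocount, the filter, the scaling, the variance model, the handling of overlapping genes, the covariates and the libraries entered. Promoters came from RefSeq on GRCm38.p6, 250 bases before to 50 after the annotated start. Some members of the lists count in the totals but are not reported here by name.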

Additional observations from a re-analysis of the deposited data

Results flagged for a closer look

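The following genes are listed because limma's interaction test found that their change in basal cells differed from that in luminal or stromal cells. Values are the basal minus the other change on the log2 scale, and negative values mean a more negative change in basal cells. Among matrix genes in the comparison with luminal cells, Sparc differed by -4.194, Col16a1 by -3.279, Col4a1 by -2.656, Col18a1 by -2.639 and Timp3 by -2.324. Fbln2 differed by -2.13, Thbs1 by -2.128 and Adamts1 by -1.887, while Mmp7 differed by 3.189. Mmp2 at -2.334, Tnc at -2.316, Col4a2 at -2.244 and Agrn at -1.929 are matrix genes singled out after their values were seen. Beyond the matrix, Aebp1 differed by -3.767, Ptn by -3.322, Pde4b by -2.033 and Zfp36 by -1.924, and Plac8 by 2.632 and Fam213a by 2.18. Taf10 at -6.98, Cox16 at -3.204 and Mettl3 at 3.563 overlap other gene models and are listed at 0 in 1 group of basal libraries, so these fitted differences depend on the pseudocount and give no fold.

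Against stromal cells Dmkn differed by 7.272, Anxa8 by 5.769, Sbsn by 4.445 and Ccdc80 by 4.185. Cdh13 differed by 3.822, Calca by 3.669, Ctla2a by 3.373, Anxa1 by 3.367 and Plac8 by 3.186. Cox16 differed by -3.128, with the same limit as above. Fibroblast marker levels, with summed values lower in Lgr5-DTR than in wild type basal libraries and higher in Lgr5-DTR than in wild type luminal libraries, are given with the matrix genes, and their part in these differences was not tested.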

How the results depend on the processing

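Of 1069 genes called in basal cells, counts stayed within 1.5 times under other pseudocounts, scalings, variance models, a 5 FPKM filter, the handling of status and overlap, the processing set and a fit of all 19 libraries. Without a filter on low values 492 were called among 18559 tested genes. With the replicate number as a replicate block 213 were called, although the numbers do not pair the libraries. Leaving out 1 library gave 337 to 2264, lowest without wild type replicate 2 and highest without Lgr5-DTR replicate 1. The basal and luminal changes differed in 388 genes, in 639 with the title number as a random block, and in 140 to 787 with a basal library left out. The basal and stromal changes differed in 268 genes, in 457 with that block, and in 118 to 385 with a basal library left out. The replicate block changed neither of these 2 counts by over 1.5 times. In each case the cause was not tested. Of 204 named called genes, 68 were called under every alternative that tested them, 91 without any 1 library, and none reversed, and 83 of them were not called without a filter on low values. FPKM give no counting error, so 3 libraries a group limit the precision, and low genes are limited most.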
